A study of Mus musculus with 40 samples.

Results

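A set of 9 genes that embryonic stem (ES) cells share with the germ line, or that are known for their expression in ES cells, were followed through 3 microarray experiments on mouse ES cells. They were the developmental pluripotency associated genes Dppa2, Dppa3, Dppa4 and Dppa5a, the germ cell genes Dazl and Ddx4, and Tcl1, Fbxo15 and Upp1. The members were chosen by gene name, and every probe whose current or older symbol matched was used, which gave 9 genes of the 13720 that could be named over the 3 array designs. These genes were read by 14 probes on the early arrays, 10 on the late arrays and 13 on the Nanog arrays, and each probe is described apart.

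Dppa2 and Dppa4 encode related nuclear proteins with a SAP domain that bind chromatin, and their genes are neighbours on chromosome 16. Dppa3 (Stella) marks primordial germ cells and protects the maternal genome from loss of DNA methylation after fertilization. Dppa5a (Esg1) encodes an RNA-binding protein with a KH domain. Tcl1 binds Akt kinases and raises their activity, Fbxo15 is an F-box protein of the SCF ubiquitin ligases, and Upp1 cleaves uridine to uracil and ribose phosphate. Dazl and Ddx4 (Vasa) are germ cell proteins, an RNA-binding regulator of translation and a DEAD-box RNA helicase. Pou5f1, the transcription factor whose loss was studied, keeps ES cells from turning into trophoblast, and Tcl1 and Fbxo15 have long been studied as genes downstream of it.

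ZHBTc4 ES cells (129/Ola) carry a Pou5f1 transgene that tetracycline (Tet) switches off. They were sampled before Tet (0 hr) and after 3, 6, 12 or 24 hr of it with 2 arrays a time (10 early arrays, labelled Oct3/4 KO, transgenic and knock down) and in another series before Tet and every 24 hr up to 120 hr with 3 arrays a time (18 late arrays, labelled ZHBTc4(Tc+), gene knock in). In the Nanog experiment, 4 male lines were grown for 3 days with LIF, the cytokine that maintains ES cells, without LIF, or with LIF and 1 uM retinoic acid (RA), and each was hybridized once (12 arrays). The clone Nanog/EF1#6 carried Nanog in an integrated pEF6/IRES neo plasmid and was set against ES 129.3 (both 129SvEv-Tac, the parent at passage 12). The clone Nanog episomal #3 carried a replicating episomal vector and was set against MG1.19 (both 129Sv, the parent at passage 5), a line that makes polyoma large T antigen. The ZHBTc4 cells had been grown for 2 passages on gelatin to remove feeder cells and were kept in medium with LIF. Each transgenic line was a single clone, and clone, strain, vector and the day on which the images were processed changed together between both pairs, so these cannot be told apart. The labels do not say that arrays of a time came from separate cultures, so the p-values measure the spread between these samples, which may be technical. The deposited design names other parental lines, and the pairs used here follow the strains and the methods. A protocol filed with the late arrays describes a Tcl1 exchange vector in EBRTcH3 cells, while the titles give ZHBTc4. On those arrays the Tcl1 probe fell, as given below.

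Each value is a log2 ratio of the Cy3 signal of the cells over the Cy5 signal of a reference RNA pooled from cultured cell lines, testis and embryo derived lines included. No dyes were swapped, so a dye effect is part of every level and cancels in a difference only as far as it was alike on the arrays compared. A difference was called at an adjusted p of at most 0.05 by limma (Benjamini-Hochberg over all gene probes of the design) together with a change of at least 1.5-fold. The Cy3 signal of 16.3 to 30.2% of gene probes on the late arrays, 0.407 to 6.77% on the early arrays and 1.78 to 5.06% on the Nanog arrays lay no higher than the 95th percentile of the negative controls. A Pou5f1 probe that all designs share was at 2.92 and 1.52 on the early arrays before Tet, and had dropped to 0.29 and 0.48 by 3 hr and to -0.53 and -0.61 by 24 hr (-2.79 ± 0.34, adjusted p = 0.0013). On the late arrays it dropped from 1.91, 2.04 and 2.4 to between -0.30 and 0.09 by 24 hr (-2.18 ± 0.11, adjusted p = 2.4e-10). Another Pou5f1 probe, on the early and Nanog arrays, was at 3.97 on both arrays before Tet, then at 3.46 and 3.38 by 24 hr (under 1.5-fold). The Nanog probe read higher in Nanog/EF1#6 than in ES 129.3 in each medium. In the line labelled Nanog episomal #3 it read lower than in MG1.19 in each medium (1.28 against 1.91 with LIF). By real-time PCR the methods report Nanog as raised in both clones, more in the episomal one. A legend of the study places a Pou5f1 array oligo in the open reading frame, without saying which of these probes it is. Whether the Nanog oligo and each of the Pou5f1 oligos lie within the transgenes is not given in the sources used here.

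The oligos are 60-mers. The pair below is shown because these Dppa5a probes were not saturated on the early arrays, while probes a, b and c were. Dppa5a lies on chromosome 9 beside the pseudogenes Dppa5b and Dppa5c (RefSeq, GRCm38.p6), and which copy each oligo matches was not determined here. Capitals mark the bases that differ between d and e.
Dppa5a d: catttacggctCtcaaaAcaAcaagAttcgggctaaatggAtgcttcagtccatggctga
Dppa5a e: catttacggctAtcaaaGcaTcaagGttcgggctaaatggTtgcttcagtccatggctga
Counted from 1 at the 5′ end, e differs from d by C12A, A18G, A21T, A26G and A41T, so that 55 of 60 positions (91.7%) agree. Dppa5a probes a and c share a run of 42 bases and are therefore no independent readings. Probes d and e, with these 55 positions in common, may not be independent readings either. The Upp1 oligo and probe b of Ddx4 have an open reading frame from end to end and are shown as the probe of a gene that fell in both Tet series and as a probe of a germ cell gene.
Upp1 a: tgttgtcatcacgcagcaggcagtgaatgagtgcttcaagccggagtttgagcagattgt
Ddx4 b: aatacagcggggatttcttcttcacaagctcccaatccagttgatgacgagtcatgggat

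Promoters were matched by gene ID in RefSeq's table (GRCm38.p6, equal windows around each start) for Upp1 (3 starts), Tcl1, Ddx4 and Dazl. The octamer ATGCAAAT that Pou5f1 family proteins bind occurred in 1.74% of all 32851 promoters, ATGNAAAT in 5.67% and the Sox motif ACAATG in 12.6%, on either strand. A match to ATGCAAAT also counts under ATGNAAAT. None of these letters occurred in the 6 member windows, which says nothing of sites elsewhere. CG dinucleotides set the members apart from each other: 11 in Tcl1 and 7, 8 and 13 in Upp1, against 28 in Dazl and 38 in Ddx4. Over all promoters the quartiles were 3, 7 and 20. The 150 bases before the start are shown for Tcl1 (chr12:105222738-105222887, minus strand) and Ddx4 (chr13:112652311-112652460, minus strand), the members with the largest fall and with the most CG, with CG in capitals.
Tcl1: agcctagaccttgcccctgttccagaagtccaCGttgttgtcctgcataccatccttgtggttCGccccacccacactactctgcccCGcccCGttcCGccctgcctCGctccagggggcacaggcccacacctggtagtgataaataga
Ddx4: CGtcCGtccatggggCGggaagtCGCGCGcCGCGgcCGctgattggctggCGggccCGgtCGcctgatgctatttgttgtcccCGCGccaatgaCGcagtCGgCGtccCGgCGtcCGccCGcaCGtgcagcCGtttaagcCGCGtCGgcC
The Tcl1 window holds 6 CG and the Ddx4 window 26.

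During the first 24 hr of Tet, Tcl1, Upp1 and Dppa3 fell, and the fall was called at 24 hr and at no earlier time. The other genes did not pass the test in that direction. Over the whole early series 4 of the 14 member probes were called, against 5.4% of all probes. At 24 hr, 3 of 14 were called lower, against 1.97% of all probes.

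Tcl1 read 3.43 and 4.09 at 0 hr, 4.19 and 3.93 at 3 hr, then 3.90 and 3.90 at 6 hr. It read 3.42 and 3.18 at 12 hr, then 0.74 and 0.91 at 24 hr. Both 24 hr arrays lay far below all other arrays, while the 12 hr arrays were just below the lowest 0 hr array. The difference from 0 hr was -0.46 ± 0.19 (SE) at 12 hr (adjusted p = 0.22) and -2.94 ± 0.19 at 24 hr, a 7.66-fold fall (adjusted p = 4.7e-05). In the Cy3 signal alone the 12 hr difference of Tcl1 was -0.87 (adjusted p = 0.0016). Most of the fall came between 12 and 24 hr, a difference of -2.48 ± 0.19 (adjusted p = 0.00079).

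Upp1 read 4.34 and 4.34 at 0 hr, 4.19 and 3.86 at 12 hr, then 3.22 and 3.16 at 24 hr, a 2.22-fold fall (-1.15 ± 0.12, adjusted p = 0.00041). Dppa3 read 3.85 and 3.89 at 0 hr, 3.69 and 3.62 at 12 hr, then 3.00 and 3.05 at 24 hr, a 1.80-fold fall (-0.85 ± 0.09, adjusted p = 0.00072). In both genes the 24 hr arrays lay below every earlier array. Both also fell between 12 and 24 hr, Upp1 by 0.84 and Dppa3 by 0.63 on the log2 scale (adjusted p = 0.0084 and 0.012).

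**Figure D1:**
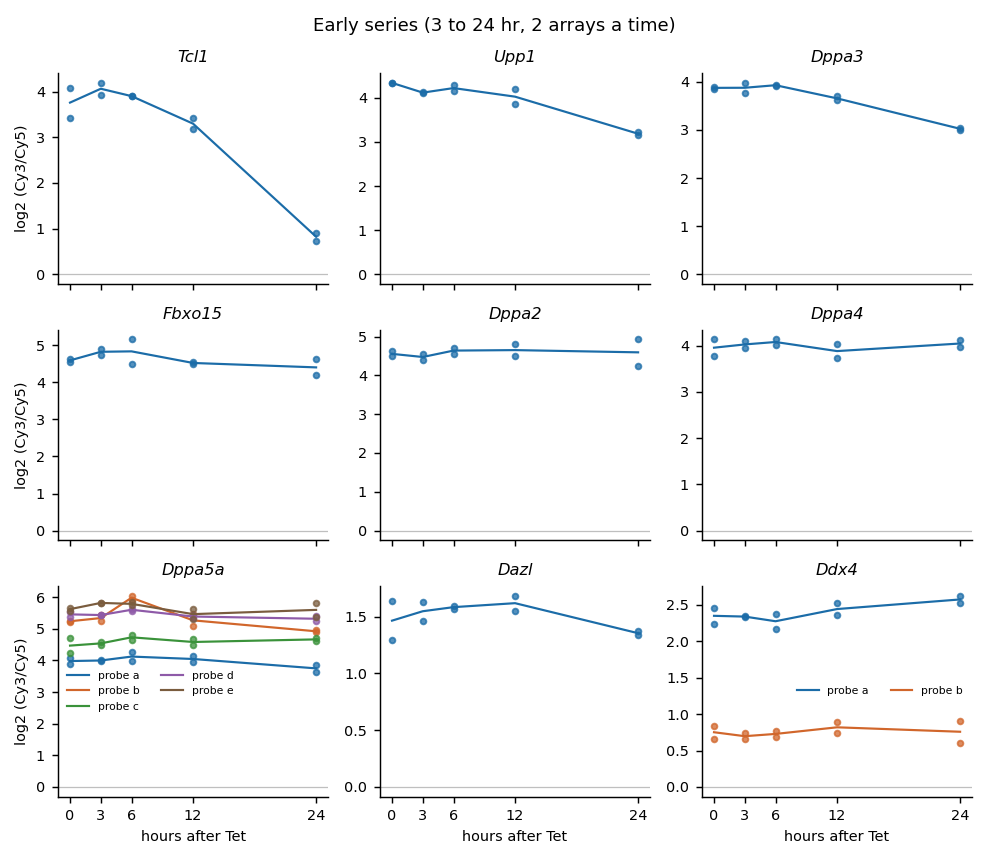
Log2 ratio of cells over reference RNA (vertical axes, scaled for each gene) against hours of Tet, with 1 point an array and lines through the means of 2 arrays. Tcl1 dropped from between 3.43 and 4.09 to between 0.74 and 0.91, Upp1 and Dppa3 fell less, and among the other probes Dppa5a b alone was called, higher at 6 hr.

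At 3 hr no member was called (limma; 0 of 14 also had an unadjusted p under 0.05), and the lowest adjusted p was 0.73. Of all 42001 probes 0 were called there, and 2642 had an unadjusted p under 0.05. At 6 hr a single member probe was called higher, Dppa5a b, against 2.11% of all probes. Its ratio read 5.22 and 5.25 at 0 hr, then 5.91 and 6.05 at 6 hr, a difference of 0.74 ± 0.13 (adjusted p = 0.036). The Cy3 signal of this probe was saturated on both arrays of both times, so that no fold is given for the cells. At the same spots Cy5 read 1566 and 2090 at 0 hr and 1141 and 1214 at 6 hr, so the ratio moved with the reference channel. With Cy3 alone the difference was -0.01. This call was lost in 11 of 20 alternatives, among them each fit without an array of 0, 3 or 6 hr. At 12 hr no member was called (limma; 3 had an unadjusted p under 0.05), with a lowest adjusted p of 0.19.

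At the Dppa5a spots both dyes fell by 24 hr while the ratio moved little. Probe d read 49110 and 36570 in Cy3 at 0 hr and 23802 and 23598 at 24 hr, and 1145 and 1152 against 798 and 735 in Cy5. Its ratio was 5.38 and 5.53 at 0 hr, then 5.24 and 5.39 at 24 hr (difference -0.14 ± 0.10, adjusted p = 0.30). Probe e, of nearly the same sequence as d, behaved alike. It had a ratio difference of -0.02 ± 0.15 and Cy3 signals of 27001 and 19959 against 11873 and 11887. Analysed by Cy3 alone, d changed by -0.94 and e by -1.07 (adjusted p = 0.00096 and 0.00057). Probes a, b and c were saturated in Cy3 at 0 hr and not at 24 hr, where Cy3 read 47026 and 51158 for a, 40714 and 43870 for b, and 49795 and 51627 for c. By Cy3 alone they changed by -0.42, -0.66 and -0.37, with the true 0 hr signal above the scanner's limit of 65517, while their ratios changed by -0.23, -0.32 and 0.20 (adjusted p = 0.21, 0.097 and 0.34). The reference RNA was the same on all arrays, and why its signal fell at these spots was not tested.

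Fbxo15 read 4.55 and 4.63 at 0 hr, then 4.19 and 4.62 at 24 hr, and these ranges overlapped (difference -0.19 ± 0.20, adjusted p = 0.51). Its Cy3 signal went from 5901 and 5674 to 3088 and 3351 while Cy5 went from 521 and 586 to 455 and 424. By Cy3 alone the change was -1.05 (adjusted p = 0.00038), so whether it was called at 24 hr depended on the use of the reference channel. Dppa2 read 4.49 and 4.62 at 0 hr, then 4.93 and 4.25 at 24 hr, and Dppa4 read 3.77 and 4.14 and then 3.97 and 4.12. For both genes the 24 hr arrays spanned the level at 0 hr or overlapped it (adjusted p = 0.89 and 0.67).

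The germ cell genes Dazl and Ddx4 were not called at any early time. Dazl read 1.64 and 1.29 at 0 hr, then 1.34 and 1.37 at 24 hr. Ddx4 probe a read 2.24 and 2.46 at 0 hr, then 2.52 and 2.63 at 24 hr, a difference of 0.22 ± 0.11 (adjusted p = 0.17). Its probe b read 0.66 and 0.84, then 0.91 and 0.61 (difference 0.01 ± 0.12, adjusted p = 0.97). The 2 probes share no run longer than 5 bases.

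In the late series Tcl1 was called lower from 24 hr, Upp1, Fbxo15 and Dppa3 from 48 hr, and Dppa2, Dppa4, Dppa5a probe a and Dazl from 72 hr, while Ddx4 rose. Dppa5a probe b was called higher at 24 hr and lower at 72 hr alone. All 10 member probes were called over the series, against 24.6% of all probes. Called lower were 1 member probe at 24 hr (3.61% of all probes), 4 at 48 hr (4.79%), 9 at 72 hr (6.41%) and 8 at 120 hr (8.61%). Called higher were 2 at 24 hr (4% of all probes) and 1 at 120 hr (12.1%). In bulk RNA, fewer cells that express a gene and less RNA of it per cell cannot be told apart.

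Tcl1 read 4.60, 4.59 and 4.32 at 0 hr, then 1.03, 1.36 and 1.15 at 24 hr, a 10.0-fold fall (-3.33 ± 0.09, adjusted p = 1.1e-13). At 48 hr it read 0.17, 0.10 and 0.10, and from 72 to 120 hr all 9 arrays lay between -0.27 and -0.01. These later times overlapped, and none of the steps from 48 hr on was called. At 120 hr the difference was -4.59 ± 0.09, a 24.1-fold lower ratio. From 48 hr on the Cy3 signal was 525 to 599, close to the negative controls, whose 95th percentile was 506 to 540 on these arrays, so a further fall could hardly be measured. By Cy3 alone the change of Tcl1 at 120 hr was -5.34.

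Upp1 read 3.77, 3.73 and 3.81 at 0 hr, then 3.25, 3.46 and 3.27 at 24 hr, a difference of -0.44 ± 0.07 that passed the test but not the 1.5-fold limit (adjusted p = 9e-05). By Cy3 alone the 24 hr change of Upp1 was -0.84 and was called (adjusted p = 1.6e-06). At 48 hr the 3 arrays averaged 1.14 ± 0.04 (SD), a 6.17-fold fall. The ratio was 0.40 to 0.58 at 72 hr, 0.05 to 0.17 at 96 hr and -0.19 to -0.01 at 120 hr. The ranges of these times did not overlap, though the steps after 72 hr were below 1.5-fold. Against 0 hr Upp1 was 14.5-fold lower at 120 hr (-3.86 ± 0.07, adjusted p = 7.9e-17). Its Cy3 signal there was 535 to 572, close to the negative controls as for Tcl1, so this fold is limited too.

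Fbxo15 read 3.22, 3.49 and 3.55 at 0 hr, 3.17, 3.31 and 3.29 at 24 hr, then 2.65, 2.37 and 2.11 at 48 hr. It read 1.76, 1.78 and 1.82 at 72 hr, 1.21, 1.30 and 1.09 at 96 hr, then 0.74, 0.86 and 0.70 at 120 hr. The first times overlapped, and from 48 hr on each time lay below the one before. The fall was 2.07-fold at 48 hr (-1.05 ± 0.11, adjusted p = 9.4e-07) and 6.30-fold at 120 hr (-2.66 ± 0.11, adjusted p = 2.1e-12). In Cy3 alone Fbxo15 was already called lower at 24 hr (-0.63, adjusted p = 2.1e-05), and its change at 120 hr was -3.75.

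Dppa3 read 1.24, 1.35 and 1.62 at 0 hr, then 1.38, 1.45 and 1.49 at 24 hr. At 48 hr it read 0.56, 0.46 and 0.55, and at 120 hr 0.32, 0.23 and 0.22. The arrays from 48 hr on all lay below those of the first 24 hr. The difference was 0.04 ± 0.07 at 24 hr (adjusted p = 0.74), -0.87 ± 0.07 at 48 hr (adjusted p = 7.3e-08) and -1.14 ± 0.07 at 120 hr (adjusted p = 7.9e-10). At 120 hr none of the 3 Cy3 signals was above the negative controls, so Cy3 was at least 2.4-fold lower there. Such a bound compares channel means after loess and between-array scaling and is open to dye bias, as no dyes were swapped.

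Dppa2 and Dppa4, the neighbouring pair, fell later. Dppa2 read 4.61, 4.49 and 4.73 at 0 hr, 4.84, 5.07 and 5.07 at 24 hr, then 4.77, 4.74 and 4.67 at 48 hr. All 24 hr arrays were above all 0 hr arrays, a difference of 0.38 ± 0.10 that was under 1.5-fold (adjusted p = 0.0098). It then read 3.54, 3.67 and 3.73 at 72 hr, 2.60, 2.99 and 3.02 at 96 hr, then 2.43, 2.67 and 2.61 at 120 hr. The steps from 48 to 72 hr (-1.08 ± 0.10) and from 72 to 96 hr (-0.78 ± 0.10) were called (adjusted p = 1.4e-06 and 0.00011), and the last step was not (adjusted p = 0.12). At 120 hr Dppa2 was 4.11-fold lower than at 0 hr (-2.04 ± 0.10, adjusted p = 3.2e-11).

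Dppa4 declined without a single large step. It read 3.50, 3.57 and 3.54 at 0 hr, 3.50, 3.49 and 3.33 at 24 hr, then 3.10, 3.16 and 3.14 at 48 hr. Its 72 hr arrays read 2.65, 2.86 and 2.80, and its 120 hr arrays 1.97, 2.35 and 2.35. No step between neighbouring times reached 1.5-fold, and against 0 hr the fall was 1.71-fold at 72 hr (adjusted p = 3.4e-06) and 2.49-fold at 120 hr (-1.32 ± 0.09, adjusted p = 2.6e-09). By Cy3 alone Dppa4 was called from 48 hr (-0.92, adjusted p = 1.7e-06), and its change at 120 hr was -2.43.

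**Figure D2:**
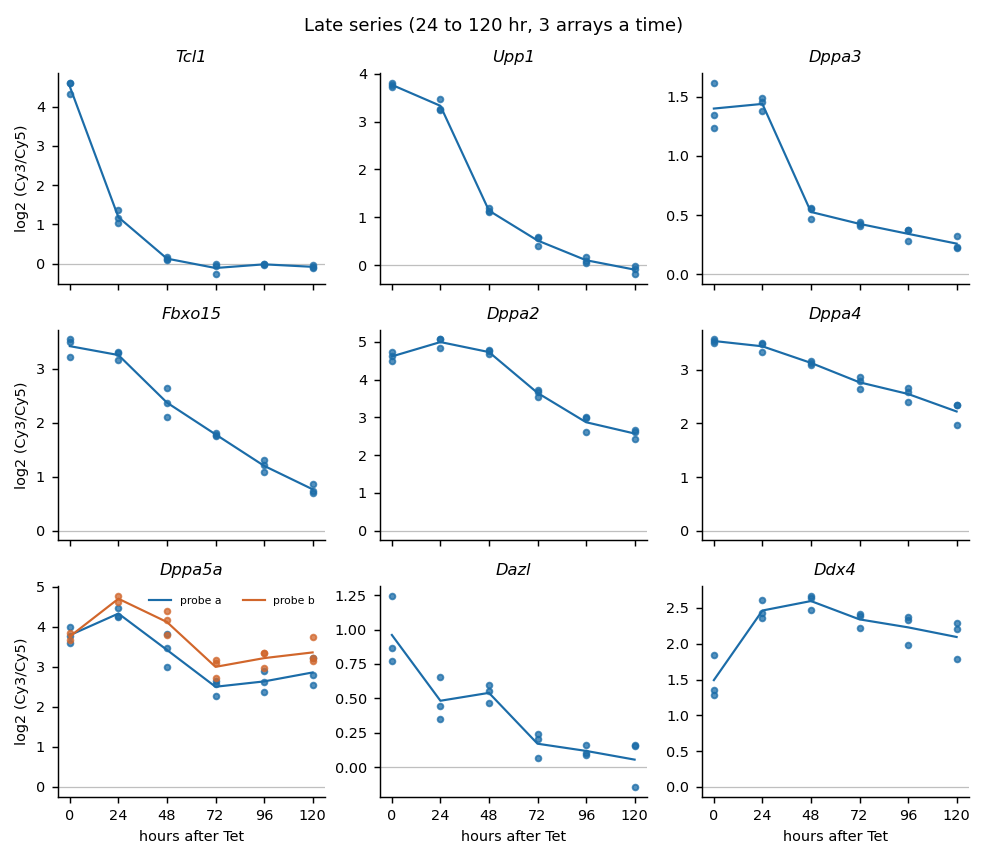
Log2 ratio of cells over reference RNA (vertical axes, scaled for each gene) against hours of Tet on the late arrays, with 1 point an array and lines through the means of 3 arrays. Tcl1 was near 0 by 48 hr, Upp1 by 96 hr, while Dppa2 was still between 4.67 and 4.77 at 48 hr and Ddx4 stayed above its 0 hr mean.

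Dppa5a gave the widest gap between ratio and signal. Probe a read 3.78, 4.01 and 3.59 at 0 hr, 4.28, 4.24 and 4.48 at 24 hr, then 3.23, 2.79 and 2.56 at 120 hr. The ratio was thus above the 0 hr level at 24 hr, by 0.54 ± 0.20 (adjusted p = 0.047, under 1.5-fold), and 1.91-fold below it at 120 hr (-0.93 ± 0.20, adjusted p = 0.0008). Probe b read 3.85 and 3.67 at 0 hr, where 1 outlier spot was left out, 4.62 and 4.78 at 24 hr, where another was, and 3.73, 3.14 and 3.21 at 120 hr. Its ratio rose at 24 hr (0.94 ± 0.22, adjusted p = 0.0038), was lower at 72 hr (-0.76 ± 0.20, adjusted p = 0.0067) and was not called at 120 hr (-0.40 ± 0.20, adjusted p = 0.12).

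Both probes were saturated in Cy3, at 65517, on every 0 hr array, and these were lower bounds of the true signal. Cy3 of probe a was 51216 to 61631 at 24 hr, 11285 to 15181 at 48 hr and 6740 to 8116 at 120 hr. Over the same times Cy5 of that probe went from 4524 to 5785 at 0 hr to 1158 to 1453 at 120 hr. Each dye thus fell at these spots from the first to the last time without overlap. By Cy3 alone the change at 120 hr was -2.89 for probe a and -2.57 for probe b, with the 0 hr signal capped by saturation. At 24 hr, where the ratio of probe b was higher, its Cy3 was saturated on 1 of 3 arrays, and Cy3 alone gave 0.16 (adjusted p = 0.64), so the direction in the cells is not settled. The part of the reference signal in the Dppa5a ratios was not tested.

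**Figure D3:**
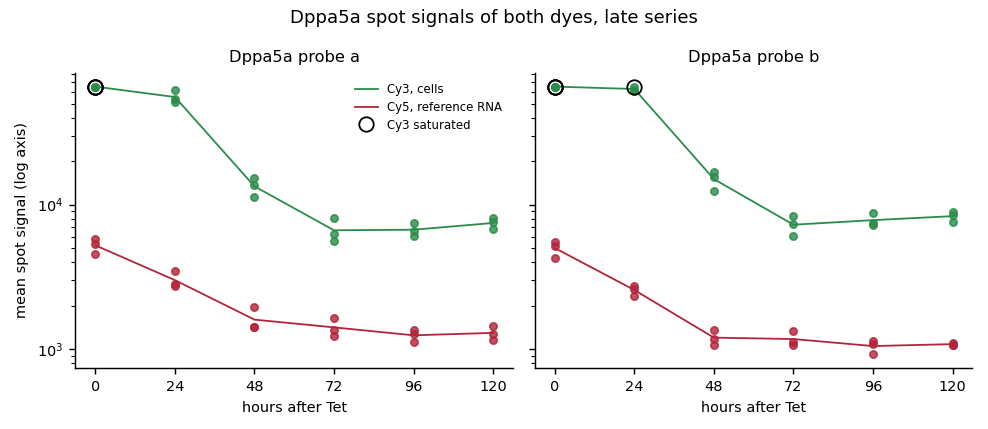
Mean spot signals (vertical axis, log scale) of Dppa5a probes a and b on the late arrays in Cy3 (cells, green) and Cy5 (reference RNA, red) against hours of Tet, with 1 point an array, lines through the means and rings around saturated Cy3 spots. Cy3 of probe a fell from the scanner's limit at 65517 to between 6740 and 8116, and Cy5 at the same spots fell as well.

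Dazl read 0.77, 0.86 and 1.25 at 0 hr, 0.65, 0.35 and 0.44 at 24 hr, then -0.14, 0.16 and 0.15 at 120 hr. All later arrays were below all 0 hr arrays, and the fall was called from 72 hr on (-0.90 ± 0.11 at 120 hr, adjusted p = 2.6e-06). Its Cy3 signal was above the negative controls on 2 of the 3 arrays at 0 hr and on none from 48 hr on, so Cy3 was at least 1.14-fold lower at 120 hr. Ddx4 probe a moved the other way, with 1.36, 1.28 and 1.84 at 0 hr, 2.43, 2.61 and 2.36 at 24 hr, then 2.47, 2.64 and 2.67 at 48 hr. The 120 hr arrays read 1.79, 2.29 and 2.20, where the lowest array lay within the 0 hr range. The rise was 1.96-fold at 24 hr (0.97 ± 0.15, adjusted p = 7.6e-05), 2.15-fold at 48 hr and 1.52-fold at 120 hr (0.60 ± 0.15, adjusted p = 0.0028), the last close to the limit.

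At 24 hr both series were measured, on different designs that were normalized apart, and the values stand side by side without a test. From 0 to 24 hr Tcl1 changed by -2.94 in the early and -3.33 in the late series, and Upp1 by -1.15 and -0.44. Dppa3 changed by -0.85 and 0.04, and Ddx4 probe a by 0.22 and 0.97. These probes have the same sequence on both designs. At 0 hr the Cy3 signal of Dppa3 was 747 to 859 on the late arrays and 1974 to 2162 on the early arrays. The negative controls of the late 0 hr arrays had a 95th percentile of 627 to 653. Later in that series Dppa3 changed by -0.87 at 48 hr and by -1.14 at 120 hr. Why the 2 series differed at 24 hr was not tested.

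Tcl1 and Fbxo15 fell without LIF, and on RA Tcl1 and Upp1 fell and Dazl rose. The lines served as the replicates of each medium. Each clone was paired with a parental line of its strain, so the lines may not be independent replicates. Of the 13 member probes 2 were called lower without LIF, against 0.532% of all probes. On RA 2 were called lower, against 1.23%, and 1 higher, against 4.64%.

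Tcl1 read 2.28 in ES 129.3, 3.71 in Nanog/EF1#6, 3.08 in MG1.19 and 2.22 in Nanog episomal #3 with LIF. Without LIF it read 0.43, 2.36, 0.90 and 0.96 in that order, and on RA 0.46, 1.69, 0.49 and 0.30. It was lower in 4 of 4 lines under both conditions, with a mean change of -1.66 ± 0.16 without LIF, or 3.15-fold (adjusted p = 0.0052), and of -2.08 ± 0.16 on RA, or 4.24-fold (adjusted p = 2e-04). Without MG1.19 the change on LIF removal was -1.49 and no longer passed (adjusted p = 0.072). This call was also lost in the parental lines alone.

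Fbxo15 read 3.17, 4.27, 3.99 and 2.64 with LIF in the same order of lines and 1.48, 3.15, 1.67 and 1.75 without. It was lower in 4 of 4 lines, with a mean change of -1.51 ± 0.29 (adjusted p = 0.045). This call was lost when any line was left out (-1.23 to -1.71, adjusted p = 0.079 to 0.28). On RA Fbxo15 read 3.24, 4.68, 2.63 and 2.08, higher than with LIF in the integrated pair and lower in the episomal pair (mean -0.36 ± 0.29, adjusted p = 0.49). RA and no LIF differed by 1.14 ± 0.29 for Fbxo15 (adjusted p = 0.033).

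Upp1 read 4.06, 4.25, 4.08 and 3.91 with LIF, 3.61, 3.61, 3.00 and 2.99 without it, and 2.67, 3.84, 2.90 and 2.88 on RA. Each line was below its LIF level in both other media. The change was -0.77 ± 0.18 without LIF (adjusted p = 0.072) and -1.0 ± 0.18 on RA, or 2.0-fold (adjusted p = 0.0066; -0.94 with adjusted p = 0.066 without MG1.19). Dppa4 fell by less than 1.5-fold in both media (-0.50 ± 0.10 and -0.52 ± 0.10, adjusted p = 0.046 and 0.0083).

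Dazl was higher on RA in 4 of 4 lines. It read 0.62, 1.70, 0.79 and 0.69 with LIF and 1.07, 2.86, 2.05 and 1.27 on RA, a mean rise of 0.86 ± 0.18 or 1.82-fold (adjusted p = 0.015). Without MG1.19 the rise was 0.73 (adjusted p = 0.10) and without Nanog/EF1#6 it was 0.76 (adjusted p = 0.063). Without LIF it read 0.56, 1.42, 0.63 and 0.90, with no shared direction. Dppa2, Dppa3, Ddx4 and the Dppa5a probes were not called in either medium. By Cy3 alone the unsaturated Dppa5a probe d was called lower on RA (-0.62, adjusted p = 0.022). Dppa5a probes a to c were saturated in Cy3 in Nanog/EF1#6 in all media and in ES 129.3 with LIF, and a and c also in ES 129.3 without LIF.

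**Figure D4:**
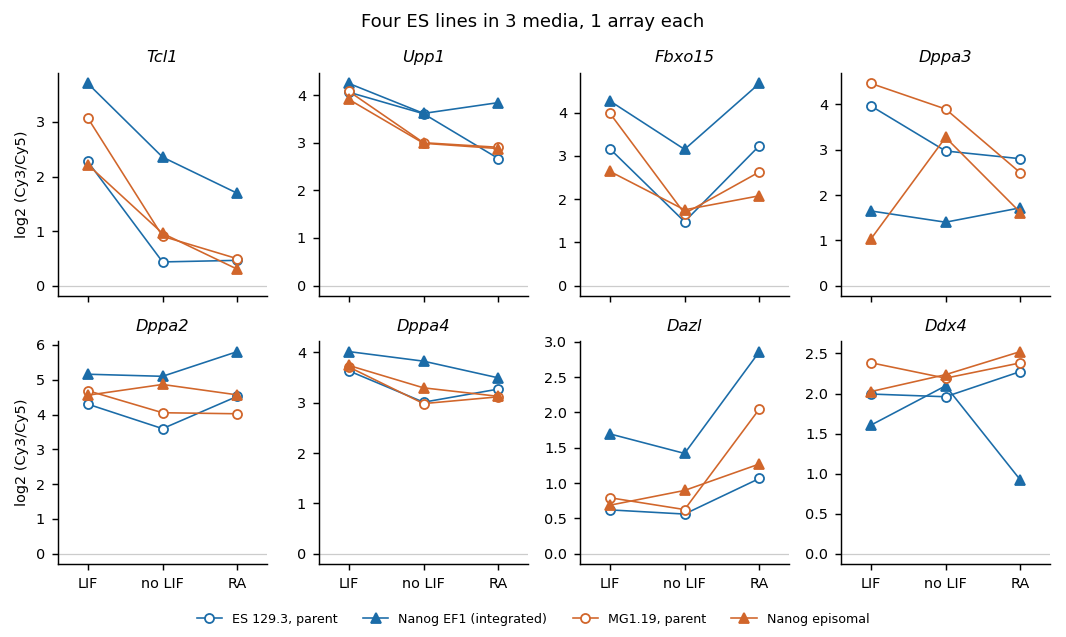
Log2 ratio of cells over reference RNA (vertical axes, scaled for each gene) in 3 media for 4 ES lines, with 1 array a point; open circles are parental lines, triangles Nanog-transgenic clones, blue the integrated and orange the episomal pair. Tcl1 fell in every line without LIF and on RA, Dazl rose on RA, and Dppa3 with LIF was lower in both clones than in their parents.

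Dppa3 read lower in the Nanog-transgenic clone than in its parent in each of the 6 pairs, but no member passed the test over all pairs. Of 13 member probes 0 were called (limma; 4 had an unadjusted p under 0.05), against 0.00488% of all probes. An unadjusted p under 0.05 was found for 8095 of all 41006 probes. Dppa3 read 3.97 in ES 129.3 and 1.65 in Nanog/EF1#6 with LIF, 2.97 and 1.40 without, and 2.80 and 1.72 on RA. In MG1.19 and Nanog episomal #3 it read 4.47 and 1.02 with LIF, 3.90 and 3.27 without, and 2.49 and 1.61 on RA. The pairs with LIF were thus the furthest apart. The mean difference was -1.65 ± 0.36 (adjusted p = 0.088), lower in 6 of 6 pairs. The pairs of a kind were media of a single clone, not replicate clones.

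The clones differed in Tcl1. Nanog/EF1#6 was above ES 129.3 by 1.43 with LIF, 1.92 without and 1.23 on RA, while Nanog episomal #3 differed from MG1.19 by -0.86, 0.05 and -0.19. The difference between both transgene effects was 1.86 ± 0.27 (adjusted p = 0.045), the only call among 13 member probes, against 0.812% of all probes. Each kind of pair was a single clone, so this p-value measures the spread between media, not between clones. The call was lost in 5 of the 6 fits that left out 1 pair (1.66 to 2.05, adjusted p = 0.067 to 0.15) and kept without the episomal pair in LIF (1.60, adjusted p = 0.046). Fbxo15 showed 1.10, 1.67 and 1.44 in the integrated pairs and -1.35, 0.09 and -0.55 in the episomal pairs (difference 2.01 ± 0.35, adjusted p = 0.064). For Dazl the difference was 1.45 ± 0.33 (adjusted p = 0.12).

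Fitted alone, the 3 integrated pairs called 5 member probes, against 4.13% of all probes. These pairs are a single clone and its parent in 3 media, so the p-values measure the spread between media, not between clones. Tcl1 (1.53 ± 0.14), Fbxo15 (1.41 ± 0.12), Dazl (1.24 ± 0.19) and Dppa2 (1.22 ± 0.13) were higher in Nanog/EF1#6 (adjusted p = 0.013, 0.011, 0.034 and 0.017). Dppa3 was lower (-1.66 ± 0.24, adjusted p = 0.03). The 3 episomal pairs alone called 0 members (2 with an unadjusted p under 0.05), against 0% of all probes, with Dppa3 at -1.65 ± 0.60 (adjusted p = 0.59). Whether the transgene effect differed by medium was also tested, and 0 of 13 member probes were called for no LIF (5 unadjusted) and 0 for RA (3 unadjusted), against 0% of all probes in both. Unadjusted, 3345 of all 41006 probes passed for no LIF and 3801 for RA.

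**Figure D5:**
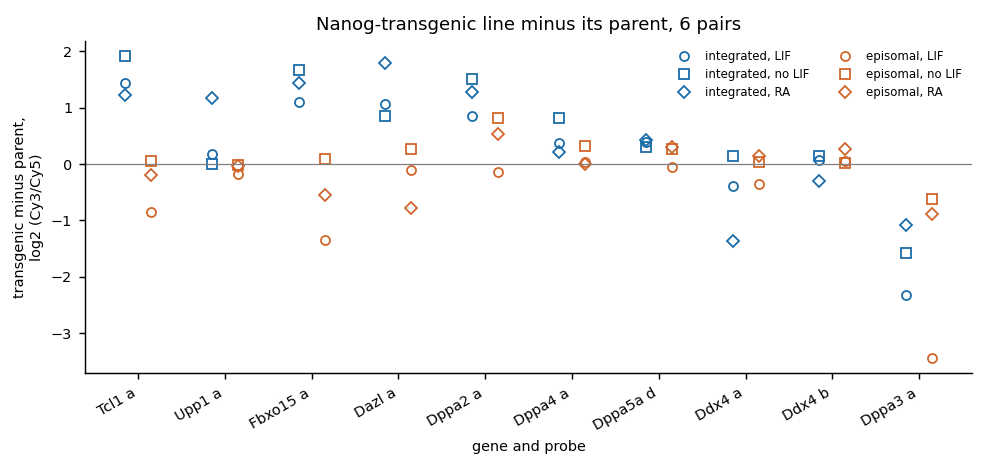
Difference in log2 ratio between each Nanog-transgenic clone and its parent (vertical axis), with blue for the integrated and orange for the episomal pair and a symbol for each medium. Dppa3 was lower in all 6 pairs, and Tcl1 and Fbxo15 were higher in the 3 integrated pairs and averaged below 0 in the episomal pairs.

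Related genes from lists were counted beside the members. These lists were chosen with earlier results of these data known. Of 23 other germ cell genes, 16 were measured on the late arrays. At 120 hr 6 were lower and 1 higher, against 8.61% and 12.1% of all probes. Their median change was -0.15, against -0.000634 for all probes tested. Stra8, a gene of meiotic entry, fell by 2.99 on the log2 scale (adjusted p = 8e-14), and Tex14, of germ cell bridges, fell by 1.30 (adjusted p = 1.5e-08). At 24 hr on the early arrays 20 were measured, and 1 changed, Taf7l, which rose by 1.07 (adjusted p = 0.00038). Of all 42006 probes 2962 were called higher there. Of the 19 on the Nanog arrays, 3 were lower without LIF (0.532% of all probes), among them Piwil2 (-0.80, adjusted p = 0.035). On RA 3 were higher (4.64% of all probes), with Stra8 at 1.92 (adjusted p = 0.021) and Tex11 at 0.97 (adjusted p = 0.0012).

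Of 9 other ES-cell-associated transcripts on the late arrays 6 were lower at 120 hr (median -0.87), against 8.61% of all probes. The lower ones included the Nodal coreceptor Tdgf1 (-4.61 ± 0.08), Nanog (-2.79 ± 0.12) and the growth factor Gdf3 (-2.30 ± 0.06). At 24 hr on the early arrays 5 of 11 were lower (1.97% of all probes) and 1 higher (2962 of all 42006 probes). Eras, a Ras-like GTPase of ES cells, fell by 1.06 (adjusted p = 0.0017). On RA 6 of 10 were lower (1.23% of all probes), with Utf1 at -1.45 (adjusted p = 1e-04). Without LIF 1 was (0.532% of all probes), Eras (-1.17, adjusted p = 0.0075).

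Partners and pathway relatives of single members were counted as well. Of 6 measured relatives and kinases of Tcl1, the kinase Akt1 alone was called at 120 hr, 4.18-fold higher (2.06 ± 0.13, adjusted p = 3.4e-10), against 12.1% of all probes called higher. Of 6 pyrimidine genes, the class of Upp1, 3 were lower at 120 hr (8.61% of all probes), namely Dut (-1.10), Dhodh (-0.85) and Tymp (-0.66). Ooep, an oocyte protein with a KH-type fold and a relative of Dppa5a, changed by -1.38 at 24 hr of the early series and by -3.82 at 120 hr (adjusted p = 0.00072 and 3e-15). Without LIF its relative Khdc3 fell by 1.93 (adjusted p = 0.034).

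Markers of other cell types moved in the same samples. At 24 hr of the early series 4 of 8 trophoblast markers were higher, against 2962 of all 42006 probes. Their summed ratio was 20.3 to 20.4 at 0 hr and 25.9 to 29.0 at 24 hr. Lower were 1 of 6 ES and 1 of 5 primitive endoderm markers, against 1.97% of all probes. Each marker was read by its brightest probe. For Pou5f1 on the early arrays that was the probe that changed by -0.55 and was not called, while the other Pou5f1 probe was called at -2.79. On the late arrays, of 7 measured trophoblast markers 5 rose by 120 hr, against 12.1% of all probes. The trophoblast sum went from 12.9 to 15.1 at 0 hr to 55.4 to 65.6. ES markers were lower in 5 of 6, against 8.61% of all probes. Of the fibroblast markers 2 of 6 were higher, with a sum of 1.74 to 1.97 at 0 hr and 4.07 to 4.34 at 120 hr. On RA 4 of 6 ES markers were lower (1.23% of all probes). Higher were 5 of 8 trophoblast, 3 of 5 primitive endoderm and 3 of 6 fibroblast markers (4.64% of all probes). Of the primordial germ cell markers, which include members, 3 were measured late, with a sum of 5.71 to 7.73 at 0 hr and 5.14 to 6.87 at 120 hr. The part of such cells in the members' changes was not tested.

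Genes with the most similar profiles were named by Pearson's r over the late arrays, among 3778 candidates. The points share a time course, so r describes a shared time and gives no test. Tcl1 was closest to Lefty1 (r = 0.995), Jam2 (0.995) and Trh (0.994), and Upp1 to Gdf3 (0.994), Mettl5 (0.992) and Etv5 (0.991). Fbxo15 was closest to Mif (0.988), Dppa4 to Dkc1 (0.992), Dppa2 to Ak4 (0.981) and Dppa3 to Serpini1 (0.985). The nearest genes were less near for Dazl (Capn9, 0.96) and Dppa5a probe b (Ap3m2, 0.921 over 16 arrays). Cy3 of that Dppa5a probe was saturated on every 0 hr array, so its profile is limited by saturation.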

How the data were processed

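The deposited files held the mean spot intensity and local background of the cells (Cy3) and the reference (Cy5), as the scanner software gave them (Agilent Feature Extraction, version A.7.5.1, per the file headers). The authors also deposited log10 values of the normalized Cy3 signal, which were used as an alternative. On 1 array some cells of that table hold a code for a missing value, so its column was treated as a score in the deposited table and the code as missing.

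With limma 3.58.1 in R 4.3.3, outlier-flagged spots were set to missing, normexp (offset 50) was used against background, and log2 ratios were normalized within arrays by loess. The offset draws dim spots toward 0. Spots of a probe were averaged, and time, or medium and line, was fitted to each design apart. Transgene effects were fitted on the differences between clone and parent. Calls needed an adjusted p of 0.05 and 1.5-fold. The fits were tested on simulated data with independent arrays. Of 100 probes changed by 1 on the log2 scale, the early 24 hr fit called 67 and the late 120 hr fit 100. The RA fit called 87 and the transgene fit 92. The alternatives were other normalizations, Cy3 alone, a Cy5 bleaching correction, dim or saturated spots left out, another offset, array weights, the F test of the methods, a 2-fold limit, a replicate block and leaving out arrays, lines or pairs.

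Every probe of the members was described. From each list at most 3 called genes were named, and 3 pattern neighbours were sought for the brightest late probe of each member. The neighbours of Ddx4 are not reported here. Members and lists were chosen with earlier results of these data known.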

Additional observations from a re-analysis of the deposited data

Results flagged for a closer look

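Of 39 sets of 4 to 10 differences, 4 held a value far from the rest, where chance gives about 1 in 20. All were differences between a Nanog-transgenic clone and its parent. For Ddx4 probe a, Nanog/EF1#6 on RA differed by -1.36, against -0.39 to 0.14 in the other pairs. In that pair normalized log2 Cy3 of probe a was 9.21 in the clone and 9.29 in ES 129.3. Log2 Cy5 was 8.29 and 7.01, so the ratio moved with the reference channel. Ddx4 probe b differed by -0.30 in that pair. For Upp1 the same pair differed by 1.18, against -0.17 to 0.18. For Dppa5a probe b, Nanog/EF1#6 with LIF differed by 0.91, against -0.39 to 0.06, and Cy3 of that probe was saturated in both lines. For Dppa5a probe d, Nanog episomal #3 with LIF differed by -0.0586, against 0.26 to 0.43.

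The transgene effect on Tcl1 was larger in the integrated than in the episomal pairs by 1.86 (limma, adjusted p = 0.045, with the media of each clone as replicates). For Upp1 the pairs of both kinds had opposite signs on average, and the difference of 0.53 did not pass the test (adjusted p = 0.54).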

How the results depend on the processing

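Over the early series 4 member probes were called, 2 with a 2-fold limit, 7 with Cy3 alone and 0 with the F test of the methods, and the count was 4 in every fit that left out 1 array, though the call of Dppa5a probe b at 6 hr was lost in 6 of these. Over the late series 10 were called, with 8 to 10 under the alternatives and 10 in every fit that left out 1 array. With the replicate number as a block the counts were 4 and 10. Residuals of same-numbered arrays correlated at -0.14 to 0.34 in the early (median 0.117) and -0.43 to 0.76 in the late series (median 0.198). For arrays of different numbers the medians were -0.118 and -0.135. Whether the numbers pair the samples is not settled by these values. Without LIF 2 were called. The count was 1 with Cy3 alone, with the Cy5 bleaching correction, with Feature Extraction's processed signals and with the authors' values, and 0 in the parental lines alone. Leaving out a line gave 0 to 2, with 0 without MG1.19 and 1 without either Nanog/EF1#6 or Nanog episomal #3. On RA 3 were called, and 1 to 3 when a line was left out, with 1 without MG1.19. The transgene effect had 0 calls over all pairs and 5 in the integrated pairs alone. The difference between both transgene effects had 1 call, 0 with Cy3 alone and with the bleaching correction, 2 with array weights, and 0 to 1 when a pair was left out. For each of these shifts the cause was not tested beyond the values given with the results.

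Dppa5a probe b reversed with Cy3 alone, to -0.00823 at 6 hr of the early and -1.86 at 48 hr of the late series. Over the settings Tcl1 at 120 hr ranged from -5.34 to -4.41 and Upp1 from -4.64 to -3.74. Ddx4 probe a ranged from 0.44 to 0.98 at 120 hr and was not called in 6 of 30. The median of all early probes at 24 hr was -0.06, and -0.16 with the authors' values and -0.11 with the processed signals. A scan day block was not run, since each Tet series was processed on a single day and both days of the Nanog arrays coincide with the pairs. Saturation limits Dppa5a, and signals near the negative controls limit late Tcl1, Upp1, Dazl and Dppa3.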
